A study of Sus scrofa with 15 samples.

Results

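Untreated cloned pig embryos were compared between stages, with 3 libraries of SCNT embryos at the 8-cell stage (SCNT8c) set against 3 at the 4-cell stage (SCNT4c), chosen by their stage and the absence of any treatment. These are 6 of the 15 libraries of the study. Every embryo came from somatic cell nuclear transfer (SCNT), in which a cultured pig fetal fibroblast (PFF) is joined whole, by electric pulses, to an oocyte whose own chromosomes have been removed, and the resulting embryo is cultured. Each library held the RNA of a pool of 30 embryos, amplified as cDNA before sequencing. The remaining libraries were 3 of PFF, 3 of 4-cell SCNT embryos given KDM4A mRNA, which encodes a histone demethylase, together with GSK126, an inhibitor of the histone methyltransferase EZH2 (SCNT4c-KG), and 3 of 4-cell SCNT embryos whose donor cells carried a doxycycline-inducible TDG transgene, with doxycycline added (SCNT4c-TDG). Neither SCNT8c nor SCNT4c embryos received any of these agents, and neither the hour of collection nor whether the pools of a group came from separate days is stated in the sources used here. The labels of 2 groups do not agree among themselves. The descriptions number the SCNT4c samples otherwise than their titles and give the SCNT4c-KG samples the names that the table uses for SCNT4c, so columns were taken by the titles and the SCNT4c libraries are called a, b and c. KDM4A, the injected mRNA, ranged from 134 to 313 in the columns taken as SCNT4c and from 1429 to 1476 in those named for SCNT4c-KG. It also ranged from 555 to 918 in SCNT4c-TDG and from 4932 to 5150 in PFF, neither of which was given this mRNA. Its level alone therefore does not settle the labels. The sample titled SCNT8c replicate 3 is described by the number 4 while its column is numbered 3, and it was taken by its title, so whether that column is the 8-cell pool of the label is not settled by the sources used here.

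Early cleavage in mammals runs first on RNA and protein stored in the oocyte. During the maternal-to-zygotic transition (MZT) these stored transcripts are degraded while the nuclei begin to transcribe, a step called embryonic genome activation (EGA), which in the pig centres on the 4-cell stage and in cloned embryos can be delayed. The first abundant embryonic transcripts of many mammals encode the machinery of growth, such as ribosome assembly, translation, splicing and proteolysis, whereas the stored pool holds zona proteins, meiotic regulators and maternal effect factors. In a cloned embryo a further source exists, since the donor fibroblast brings its own transcripts and its own pattern of active genes.

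The values compared were library-normalized read counts, so each level is relative to the other RNA of its library. Whole reads could be recovered for every value, and totals ranged from 18083559 to 19549670 reads in SCNT8c and from 20460653 to 22530486 in SCNT4c. Because pools were lysed whole, fewer cells of a type and less RNA per cell cannot be told apart, and neither can new transcription and slower decay. Embryo identity was checked first. ZP4, a zona pellucida glycoprotein of the oocyte, ranged from 34726 to 85407 over the 6 libraries and DPPA3, a maternal protein that shields the early genome, from 1452 to 7308, and both were at 0 in PFF. POU5F1, a core pluripotency factor, was low and uneven, at 162, 164 and 243 in SCNT8c replicates 1, 2 and 3 and 927, 98.7 and 6.64 in SCNT4c libraries a, b and c. Of the 12 embryo and oocyte identity markers 7 reached the mean of 10 needed for testing. Fibroblast markers summed to between 4913 and 10415 in the embryo libraries and to at least 4778615 in PFF.

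The library labelled SCNT8c replicate 3, whose labels disagree as said above, stood apart from its group. On the log2(value + 1) scale over 18942 features, SCNT8c replicate 3 had a mean Pearson correlation of 0.859 with the SCNT4c libraries and of 0.772 with SCNT8c replicates 1 and 2, whereas replicates 1 and 2 correlated with each other at 0.878 and with SCNT4c at 0.770. These correlations are across features that share library depth and composition and are given as a description. Assembled transcripts, some of which lie at known genes, took 11% of the signal in SCNT8c replicate 3 and from 10.9 to 12.3% in SCNT4c, against 7.99 and 6.18% in SCNT8c replicates 1 and 2. Mitochondrial genome entries took 1.49% in replicate 3, from 0.909 to 1.39% in SCNT4c and 2.09 and 2.30% in replicates 1 and 2. Results of the comparison are therefore given for the 3 SCNT8c libraries and again for replicates 1 and 2 alone. The part played by these library differences in the results was not tested.

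Of 18942 features tested, 497 were higher and 599 lower in SCNT8c by more than 2-fold at an adjusted p under 0.05, which is 2.62% and 3.16% of those tested, or 5.79% together. Without replicate 3, 12.4% were higher and 19.9% lower (32.3% together). Of the calls with 3 libraries, 494 of the 497 higher and 597 of the 599 lower were also called in the same direction without replicate 3. Both fits share all other libraries, and leaving out replicate 3 was chosen on these data. This overlap, and the larger counts and smaller p-values without replicate 3, are therefore no independent support. The median log2 fold change of all features was −0.31, and −0.24 without replicate 3, so the median of a gene group should be read against these values. Groups without overlap, in which every SCNT8c library lay on one side of every SCNT4c library, made up 9.24% of features on the higher side and 14.3% on the lower (23.5% together), and 24.6% and 32.7% (57.3% together) without replicate 3. The calls leaned on the spread estimated with the SCNT4c-KG and SCNT4c-TDG libraries. A limma fit of SCNT8c and SCNT4c alone called 0 features (0.0% in either direction), with 3582 at an unadjusted p under 0.05, whereas the same fit without replicate 3 called 28.9% (10.1% higher and 18.8% lower), edgeR on recovered reads called 658 features and DESeq2 2733. Leaving out any library other than replicate 3 also removed most calls, with 41 and 51 left without SCNT8c replicates 1 and 2, and 174, 31 and 234 without SCNT4c libraries a, b and c. The values in the 6 libraries are accordingly given beside the calls, in the order SCNT8c replicates 1, 2 and 3 and SCNT4c libraries a, b and c. Log2 fold changes are SCNT8c over SCNT4c and those from 3 libraries carry the standard error of the fit, with the log2 fold change without replicate 3 beside them. Every gene described as risen or fallen with 3 libraries also passed, in the same direction, without replicate 3.

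The calls were not spread evenly over the kinds of feature in the table, which held genes with a symbol, genes known only by a LOC number, and assembled transcripts. Among 9803 genes with a symbol 4.25% were higher and 3% lower, with a median log2 fold change of −0.01. Among 2984 LOC-numbered genes 0.905% were higher and 4.42% lower (median −0.93), and among 6143 assembled transcripts 0.863% were higher and 2.82% lower (median −0.63). Without replicate 3 the symbol genes were 17.2% higher and 15.1% lower, the LOC-numbered genes 6.69% and 26.7%, and the assembled transcripts 7.65% and 24.1%. The mean needed for testing was taken over all embryo libraries of the fit, most of them at the 4-cell stage. Low features present only at that stage therefore entered the test more easily, and the part of this in these shares was not tested.

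By their medians with 3 SCNT8c libraries, the gene groups that stood highest belonged to protein synthesis, protein turnover and respiration. Nuclear-encoded subunits of oxidative phosphorylation, cytosolic ribosomal proteins, proteasome subunits and ribosome biogenesis genes had median log2 fold changes of 1.07, 0.95, 0.92 and 0.77. Apoptosis genes had a median of 0.45. Without replicate 3 their median was 1.21, above that of ribosome biogenesis genes (1.08) and near that of proteasome subunits (1.22). At the other end, maternal effect and oocyte factors had a median of −1.53. SCNT8c replicate 3 lay close to the SCNT4c mean in the rising groups, as the plot of list medians shows.

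**Figure D1:**
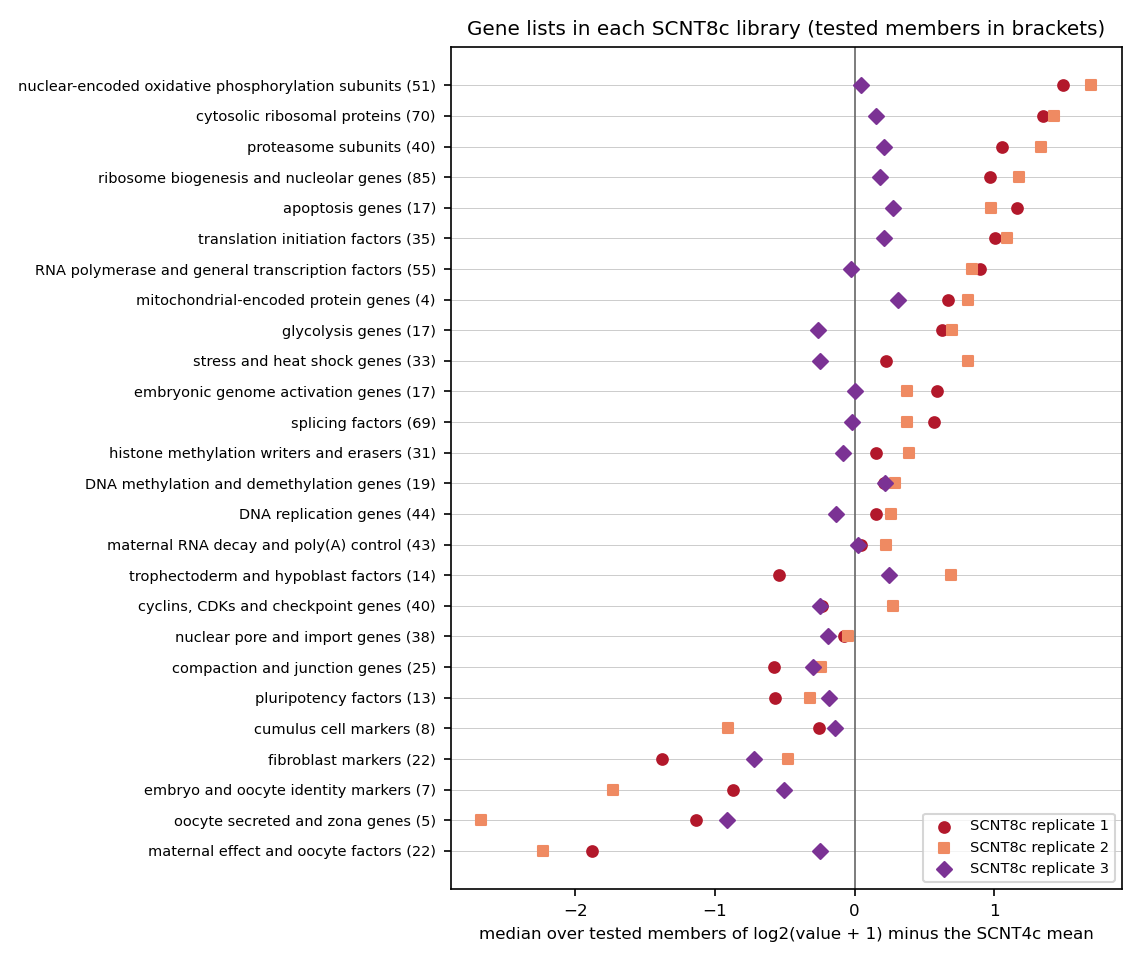
Median over the tested members of each gene list of log2(value + 1) minus the mean of the 3 SCNT4c libraries (x axis, log2 units), with 1 point for each SCNT8c library and the number of tested members in brackets. For ribosomal proteins replicates 1 and 2 sit at 1.35 and 1.43 and replicate 3 at 0.15, and for maternal effect factors they sit at −1.88, −2.23 and −0.25.

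Cytosolic ribosomal proteins are the structural proteins of the translating ribosome. Their summed value was 335641, 389180 and 163504 in SCNT8c replicates 1, 2 and 3 and 111441, 175271 and 184671 in SCNT4c libraries a, b and c. Replicates 1 and 2 thus lay above every SCNT4c library and replicate 3 within their range. Of 79 listed genes 70 were tested, of which 11 rose and 0 fell, or 15.7% against 2.62% of all features. Without replicate 3, 52 of 71 rose and 0 fell (12.4% of all features rose), with a median of 1.34. With all 3 libraries 65 of the 70 had a log2 fold change above 0, and 18 of the 70 did not overlap, where 9.24% of all features did not on the higher side. No more than 2 members were called when any library other than replicate 3 was left out, and DESeq2 called 40 of the 70. Ribosomal protein genes have many near-identical processed copies and the counts held uniquely mapped reads, so the level of each member is uncertain.

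RPS3A, a protein of the small subunit, read 28454, 40100.2 and 14827 in SCNT8c against 5523, 9506 and 12957 in SCNT4c. All 3 SCNT8c libraries were above all 3 SCNT4c libraries, with replicate 3 just above library c (log2 fold change 1.55 ± 0.35 SE, adjusted p = 0.0276). Without replicate 3 the log2 fold change was 1.94 (adjusted p = 0.000238). RPL9, of the large subunit, read 3946, 4459.9 and 1518 against 528, 1073 and 1393 and rose by 1.69 ± 0.40 (adjusted p = 0.0309, and 2.18 without replicate 3). RPL26, also of the large subunit, had the largest rise of the list, from 32.3, 117 and 102 in SCNT4c to 482, 565 and 137 in SCNT8c (log2 fold change 2.18 ± 0.52, adjusted p = 0.0313, and 2.82 without replicate 3). Its replicate 3 stood above the highest SCNT4c library by a small margin, while replicates 1 and 2 were several times higher. RPL29 moved likewise, from 73.4, 256 and 203 to 752, 814 and 299 (1.85 ± 0.46, adjusted p = 0.0355, and 2.32 without replicate 3).

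Ribosome biogenesis and nucleolar genes process ribosomal RNA and assemble the subunits. Of 85 tested members 14 rose (16.5% against 2.62% of all features) and 1, LTV1, fell, with a median log2 fold change of 0.77, and 36 rose (42.4% against 12.4%) and 1 fell without replicate 3, with a median of 1.08. Leaving out any other library left 0 to 7 called higher. Non-overlap on the higher side was seen for 30 of the 85, where 9.24% of all features showed it. RRP9, which binds the U3 small nucleolar RNA, had 2255, 2816 and 1422 in SCNT8c and 425, 495 and 715 in SCNT4c. Even replicate 3 was well above the highest SCNT4c library, and the log2 fold change was 1.97 ± 0.33 (adjusted p = 0.0144) and 2.24 without replicate 3 (adjusted p = 8.13e-05). NOP16, a nucleolar assembly protein of the large subunit, rose from 1525, 2787 and 3299 to 12212, 12028 and 4802 (1.88 ± 0.36, adjusted p = 0.0189, and 2.33 without replicate 3). IMP4, a component of the small subunit processome, rose from 502, 450.0 and 269.8 to 1772, 2084 and 876 (1.91 ± 0.37, adjusted p = 0.0189, and 2.28 without replicate 3). NOC2L, a nucleolar protein that also binds histones, rose from 196, 139 and 170.2 to 963, 1226 and 449 (2.27 ± 0.45, adjusted p = 0.0205, and 2.70 without replicate 3). In all 4 genes replicate 3 was the lowest SCNT8c library and still above SCNT4c.

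Translation initiation factors recruit the ribosome to the mRNA. Of 35 tested, 7 rose (20% against 2.62% of all features) and 0 fell, with a median of 0.74. Without replicate 3, 18 rose (51.4% against 12.4%) and 4 fell (11.4% against 19.9%), with a median of 1.07. Leaving out any other library left 0 to 3 called. EIF3G, a subunit of the eIF3 complex that bridges mRNA and ribosome, had the largest rise, from 959, 1449 and 1634 to 7777, 7804 and 3183 (log2 fold change 2.14 ± 0.35, adjusted p = 0.0144; 2.57 without replicate 3, adjusted p = 3.56e-05). EIF4E, which binds the mRNA cap, rose from 6735, 7615 and 7464 to 25334, 24049 and 14337 (1.50 ± 0.26, adjusted p = 0.0152, and 1.77 without replicate 3). In both genes every SCNT8c library was above every SCNT4c library. EIF2S2, the beta subunit of the eIF2 complex that delivers the initiator tRNA, read 25503, 22088 and 13504 against 5303, 9097 and 10828 (1.29 ± 0.30, adjusted p = 0.0291, and 1.56 without replicate 3). EIF2B4, a subunit of its exchange factor, read 1805, 2547 and 688 against 245, 575 and 575 (1.76 ± 0.49, adjusted p = 0.0465, and 2.31 without replicate 3). EIF4E1B, the oocyte form of the cap-binding protein, was among the 4 that fell without replicate 3 (log2 fold change −2.18, adjusted p = 0.000804), whereas replicate 3 had its highest value of the 6 libraries, with 2366, 785 and 7701 in SCNT8c against 7383, 5700.1 and 5557. The other 3 were EIF4B, EIF4E3 and EIF5B.

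**Figure D2:**
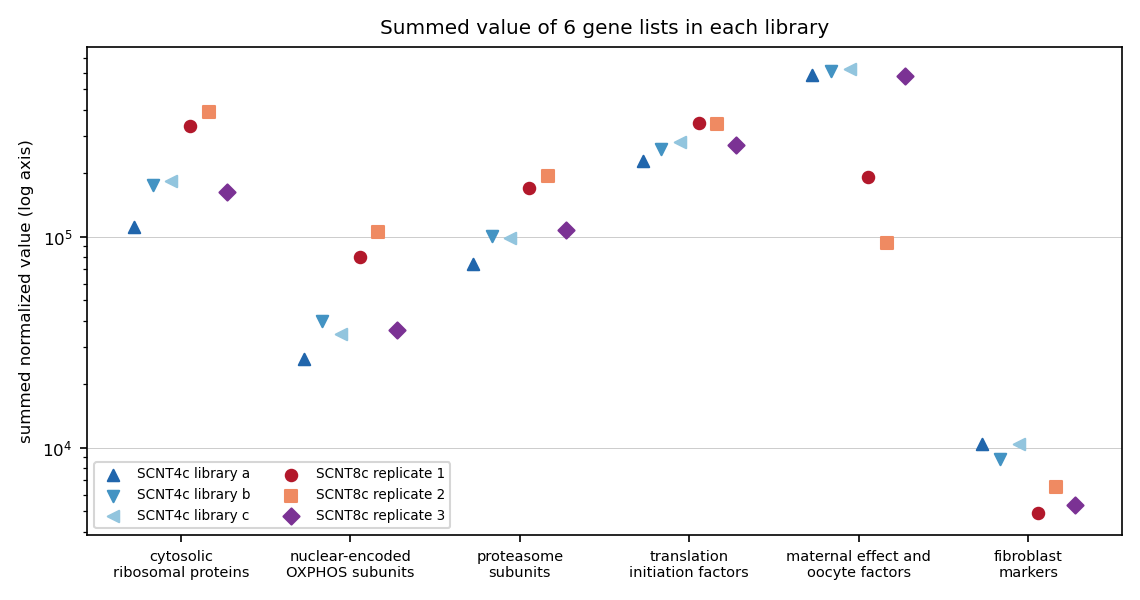
Summed normalized value of 6 gene lists in each library (y axis, log scale), with 1 symbol for each SCNT4c library (triangles) and each SCNT8c replicate. SCNT8c replicates 1 and 2 lie above SCNT4c for the 4 lists on the left and below it for maternal effect factors, replicate 3 lies within or close to the SCNT4c range for these 5 lists, and for fibroblast markers all 3 SCNT8c libraries (4913, 6488 and 5330) lie below SCNT4c (8829 to 10415).

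The proteasome degrades ubiquitin-tagged proteins, and its subunits followed the same order of libraries. Of 40 tested, 7 rose and 0 fell (17.5% against 2.62% of all features, median 0.92), and 19 rose (47.5% against 12.4%) and 1, PSMD3, fell without replicate 3 (median 1.22). With any other library left out 0 to 1 were called. PSMB5, a catalytic subunit, rose from 750.1, 916 and 852 to 3886, 5737 and 1469.6 (log2 fold change 1.93 ± 0.39, adjusted p = 0.0205, and 2.496 without replicate 3). PSMC5, an ATPase of the regulatory particle, had 3468, 6018 and 1449.6 in SCNT8c against 808, 1234 and 1358 in SCNT4c (1.49 ± 0.42, adjusted p = 0.0486, and 2.05 without replicate 3). PSMG2 and PSMG3, chaperones of its assembly, rose by 2.07 ± 0.42 and 1.89 ± 0.46 (adjusted p = 0.0211 and 0.0326, and 2.66 and 2.37 without replicate 3). PSMC5 replicate 3 exceeded the highest SCNT4c library by little, and the other 3 genes also had replicate 3 as their lowest SCNT8c library.

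Nuclear-encoded subunits of oxidative phosphorylation form the respiratory chain and ATP synthase of the mitochondrion. Their summed value was 80337, 105633 and 35955 in SCNT8c and 26409, 39776 and 34540 in SCNT4c, so replicate 3 lay within the SCNT4c range. Of 51 tested, 10 rose and 0 fell (19.6% against 2.62% of all features), and 50 had a log2 fold change above 0. Without replicate 3, 38 rose (74.5% against 12.4%) and 0 fell, with a median of 1.62. NDUFV1, which carries the NADH-binding site of complex I, rose from 964, 765 and 1271 to 5047, 6496 and 1759 (log2 fold change 1.98 ± 0.45, adjusted p = 0.0268, and 2.55 without replicate 3). NDUFS7, another complex I subunit, rose from 242, 638 and 672 to 2492, 3489 and 879 (2.06 ± 0.52, adjusted p = 0.0359, and 2.65 without replicate 3). The accessory subunits NDUFA11 and NDUFB4 rose by 2.20 ± 0.44 and 1.93 ± 0.48 (adjusted p = 0.0205 and 0.0355, and 2.55 and 2.52 without replicate 3). No call of this list was made when any library other than replicate 3 was left out.

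The mitochondrial genome encodes further subunits of the same complexes, and 4 of its 13 protein genes were tested. None of the 4 was called (2.62% of all features rose), although all had a log2 fold change above 0, and 1 rose without replicate 3, where 12.4% of all features rose. CYTB, of complex III, read 82079.6, 95162 and 85858 in SCNT8c and 64275, 72277 and 43287 in SCNT4c (0.58 ± 0.23, adjusted p = 0.118, and 0.59 without replicate 3), and ND5, of complex I, read 223613, 235834 and 159048 and 145466, 131106 and 99538 (0.71 ± 0.24, adjusted p = 0.0769, and 0.89 without replicate 3). Glycolysis genes gave 0 calls among 17 tested, where 5.79% of all features were called, and 3 rose and 2 fell without replicate 3 (17.6% and 11.8%, against 12.4% and 19.9% of all features). GAPDH, a glycolytic enzyme often used as a reference, was 5479, 12122 and 1649 in SCNT8c against 2709, 2748 and 3666 in SCNT4c (log2 fold change 0.67 ± 0.53, adjusted p = 0.415). Its replicate 3 was below every SCNT4c library while replicates 1 and 2 were above them, and without replicate 3 it rose by 1.44 (adjusted p = 0.00664). ALDOA, aldolase, showed the same arrangement, with 4382, 5225 and 920.2 against 991, 1184 and 1137 (1.33 ± 0.51, adjusted p = 0.111, and 2.12 without replicate 3).

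The RNA polymerases and general transcription factors gave 5 rises and 0 falls among 55 tested (9.09% against 2.62% of all features, median 0.40), and 20 rises (35.7% against 12.4%) and 2 falls without replicate 3 (median 0.79). GTF2H3 and GTF2H2, subunits of the TFIIH complex that opens the promoter, had values of 6327, 6418 and 2411 and of 2674, 3038 and 1203 in SCNT8c, against 478, 1649 and 1761 and 495, 703 and 918 in SCNT4c. Both rose in all 3 SCNT8c libraries, by 2.05 ± 0.46 and 1.64 ± 0.39 (adjusted p = 0.0274 and 0.0301, and 2.51 and 2.06 without replicate 3). TAF3, a subunit of TFIID that reads methylated histone H3, rose from 6.31, 33.2 and 39.9 to 156, 281 and 135 (3.07 ± 0.68, adjusted p = 0.0254, and 3.28 without replicate 3), and POLR2I, a subunit of RNA polymerase II, from 112, 93.5 and 143 to 479, 421 and 216 (1.61 ± 0.42, adjusted p = 0.04, and 1.96 without replicate 3). TBPL2, a germline relative of the TATA-binding protein that works in the oocyte, had 28, 29.9 and 291 in SCNT8c against 296, 289 and 446 in SCNT4c. Its replicates 1 and 2 were far below SCNT4c and replicate 3 lay close to it (−2.40 ± 0.77, adjusted p = 0.0696, and −3.49 without replicate 3, adjusted p = 0.000349). Among 69 splicing factors 5 rose and 0 fell (7.25% against 2.62%, median 0.26), and 14 rose (20% against 12.4%) and 3 fell without replicate 3 (median 0.52). The rises included LSM2 and LSM4, of the ring that binds U6 small nuclear RNA, at 2.31 ± 0.51 and 1.23 ± 0.34 (adjusted p = 0.0254 and 0.0484, and 2.78 and 1.61 without replicate 3). SNRNP27, of the tri-snRNP, read 1609, 2096 and 679 against 563, 491 and 409 (1.44 ± 0.36, adjusted p = 0.0362, and 1.92 without replicate 3). SYF2, of the spliceosome, read 17490.2, 12372 and 10880.1 against 6617, 5153 and 5839 (1.19 ± 0.27, adjusted p = 0.0272, and 1.33 without replicate 3).

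The DNA just upstream of the called genes was then described. For 10482 protein-coding genes with an annotated start in Sscrofa11.1, the 250 bases before it were searched on both strands for 6 short motifs that do not contain one another: the TATA box TATAAA, the CCAAT box CCAAT, the GC box GGGCGG, the E-box CACGTG, the ETS core CCGGAA and the YY1 core AAGATGG. The ETS core, the recognition letters of the ETS family of transcription factors, was held by 25.3% of the 427 genes that rose, 9.38% of the 320 that fell and 16.5% of all. Without replicate 3 the shares were 22.3% of 1772, 9.85% of 1615 and 16.5%. Few CpG pairs, 5 or fewer, were held by 11.7% of the genes that rose, 33.1% of those that fell and 21.5% of all. The TATA box was in 6.32%, 10% and 8.16%, and the GC box in 57.4%, 47.5% and 52.6%. Among genes that rose and fell without replicate 3 these shares were 12.1% and 31.2% (few CpG), 7.51% and 9.66% (TATA box) and 57.7% and 46.1% (GC box). The other 3 motifs differed less. With 3 libraries the genes that rose, those that fell and all held the CCAAT box in 37.2%, 35% and 33.5%. For the E-box the shares were 9.13%, 6.25% and 7.18%, and for the YY1 core 5.39%, 5.62% and 3.97%. Without replicate 3 the genes that rose and fell held them in 36.3% and 32.6%, 7.51% and 6.5%, and 4.51% and 4.02%. By list the ETS core was in 50% of proteasome, 40.6% of ribosomal protein, 36.9% of splicing, 32.9% of ribosome biogenesis, 30% of oxidative phosphorylation and 29.1% of RNA polymerase and transcription factor genes, but in 18.8% of translation initiation factors. Lists outside these 7 held it at shares not far from some of them, with 27.3% of DNA replication, 26.8% of RNA decay and 25.8% of histone methylation genes, and it was in 5% of 20 fibroblast markers and 4.55% of 22 maternal effect genes. A match is a description of these letters in this window and not a site.

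The 250 bases before the annotated start are printed below for 3 genes that rose and hold the ETS core (RPL26, RRP9 and PSMC5) and 2 that fell and lack it (ZP2 and KPNA7), picked after the matches were known, since they show the contrast in CpG and motif content. Each is given 5′ to 3′ on the strand of its gene from RefSeq's Sscrofa11.1 sequence, with matches to any of the 6 motifs on either strand in capitals. RPL26 lies at chr12:53553454-53553703 (minus strand, 14 CpG), RRP9 at chr13:34075426-34075675 (minus, 16 CpG), PSMC5 at chr12:15106327-15106576 (minus, 17 CpG), ZP2 at chr3:24863480-24863729 (plus, 3 CpG) and KPNA7 at chr3:6201283-6201532 (minus, 4 CpG). The genes themselves are annotated at chr12:53548313-53553453, chr13:34067517-34075425, chr12:15101946-15106326, chr3:24863730-24877522 and chr3:6167382-6201282.
RPL26: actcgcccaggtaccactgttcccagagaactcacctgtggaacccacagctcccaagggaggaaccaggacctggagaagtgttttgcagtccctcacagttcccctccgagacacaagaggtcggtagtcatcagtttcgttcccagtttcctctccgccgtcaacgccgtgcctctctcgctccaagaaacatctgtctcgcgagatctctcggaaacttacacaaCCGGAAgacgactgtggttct
RRP9: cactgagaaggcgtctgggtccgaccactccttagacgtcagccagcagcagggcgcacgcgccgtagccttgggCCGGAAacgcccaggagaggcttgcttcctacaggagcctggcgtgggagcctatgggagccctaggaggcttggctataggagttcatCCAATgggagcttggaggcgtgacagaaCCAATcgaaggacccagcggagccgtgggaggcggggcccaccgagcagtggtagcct
PSMC5: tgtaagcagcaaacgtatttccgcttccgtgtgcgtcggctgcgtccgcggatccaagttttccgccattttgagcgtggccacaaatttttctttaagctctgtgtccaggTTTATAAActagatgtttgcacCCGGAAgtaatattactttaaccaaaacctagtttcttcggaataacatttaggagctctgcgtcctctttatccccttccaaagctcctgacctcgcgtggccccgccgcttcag
ZP2: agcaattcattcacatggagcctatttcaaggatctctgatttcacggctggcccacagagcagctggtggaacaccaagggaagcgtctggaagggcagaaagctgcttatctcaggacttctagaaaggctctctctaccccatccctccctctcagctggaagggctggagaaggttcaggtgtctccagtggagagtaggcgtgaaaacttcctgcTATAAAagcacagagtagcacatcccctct
KPNA7: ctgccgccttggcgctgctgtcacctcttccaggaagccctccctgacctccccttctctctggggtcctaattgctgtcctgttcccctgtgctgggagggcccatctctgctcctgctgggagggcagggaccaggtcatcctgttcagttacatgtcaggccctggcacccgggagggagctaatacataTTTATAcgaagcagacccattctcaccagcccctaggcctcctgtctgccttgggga
In RPL26 the capitals mark an ETS core close to the start, in RRP9 an ETS core followed by a pair of CCAAT boxes, and in PSMC5 overlapping TATA box matches on both strands and then an ETS core. ZP2 and KPNA7 hold a TATA box match, on the opposite strand in KPNA7, and no other of the 6 motifs.

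Transcript length was read beside direction. The longest annotated transcript had a median of 2046 bases in the 427 genes that rose, 3807.5 in the 320 that fell and 3573.5 in all 10484, and of 2566.5 and 4146 in those that rose and fell without replicate 3. With the genes cut into 4 classes of equal size by length, in the shortest class (317 to 2078 bases) 8.24% rose and 2.37% fell, and in the longest (5881 bases and above) 2.25% rose and 3.28% fell. Without replicate 3 the shares were 28% and 11.6% in the shortest class and 12% and 19.1% in the longest. Within the shortest class, 43 of 236 genes of the 7 growth lists above rose (18.2%), against 173 of the 2384 in none of them (7.26%). In the next 2 classes the shares that rose were 9.52% against 3.03% and 14% against 2.37%, and in the longest 0 of 32 list genes rose and 1 fell, where 2.28% of the others rose. The list genes rose without replicate 3 in 59.7, 35.7, 27.9 and 21.9% of cases from the shortest class to the longest, against 24.8, 14.6, 12.6 and 11.9% of the others. The 7 lists are ribosomal proteins, ribosome biogenesis, initiation factors, proteasome, oxidative phosphorylation, RNA polymerase and transcription factors, and splicing. The part of length in the counts of the lists was not tested.

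The 12 largest rises under the naming rule were of genes with low to moderate values in SCNT4c. VPREB3, a protein of pre-B-cell receptor assembly, had 463, 609 and 56 in SCNT8c replicates 1, 2 and 3 and 0, 21.8 and 4.98 in SCNT4c (log2 fold change 5.62 ± 1.35, adjusted p = 0.0322, and 6.69 without replicate 3). TUBB4A, a beta tubulin, had 359, 995 and 96.1 and 20.5, 9.61 and 27.4 (log2 fold change 4.13 ± 0.79, adjusted p = 0.0189, and 5.01 without replicate 3). Replicate 3 was the lowest SCNT8c library in both genes and still above SCNT4c. ALKBH6, of a family of dioxygenases that act on nucleic acids, rose from 93.1, 60.3 and 18.3 to 586, 984 and 274 (3.49 ± 0.67, adjusted p = 0.0189, and 3.98 without replicate 3). ATOH1, a neurogenic basic helix-loop-helix factor, rose from 20.5, 40.2 and 63.1 to 489, 743 and 148 (3.30 ± 0.74, adjusted p = 0.0262, and 3.97 without replicate 3). DFFB, the nuclease that fragments DNA in apoptosis, rose from 3.15, 6.12 and 21.6 to 159, 180.4 and 29.6 (3.46 ± 0.91, adjusted p = 0.041, and 4.28 without replicate 3). TK1, thymidine kinase of the nucleotide salvage pathway, rose from 779, 115 and 104 to 2839.9, 3080.0 and 818 (3.19 ± 0.68, adjusted p = 0.024, and 3.80 without replicate 3), and its replicate 3 barely exceeded SCNT4c library a while libraries b and c were far lower. LY6G6D, a surface protein of the LY6 family, was the only one of the 12 whose replicate 3 was the highest SCNT8c library, with 119, 101 and 129 against 0.789, 33.2 and 26.6 (3.30 ± 0.89, adjusted p = 0.0431, and 3.22 without replicate 3).

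A further 4 of the 12 largest rises were HEBP1, a heme-binding protein, GLRB, the beta subunit of the glycine receptor, EPM2A, the glycogen phosphatase laforin, and B3GALT1, a galactosyltransferase. Their log2 fold changes were 4.20 ± 1.13, 3.99 ± 1.06, 3.85 ± 0.85 and 4.42 ± 1.17. Without replicate 3 they were 4.72, 4.62, 4.57 and 4.84. The 12 were taken from 372 genes with a symbol that rose in both fits, did not overlap and had a mean of at least 100 in SCNT8c.

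**Figure D3:**
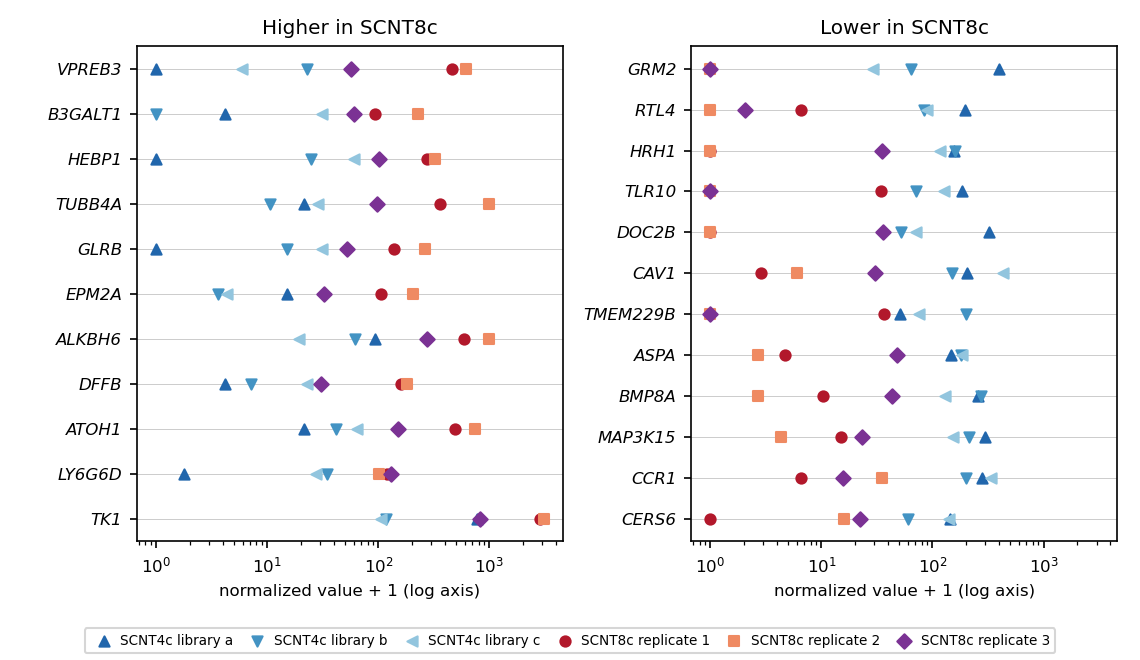
Normalized value + 1 (x axis, log scale) of 11 of the 12 genes with the largest rise and the 12 with the largest fall among genes that passed the naming rule, with 1 symbol for each of the 6 libraries. In every gene the 3 SCNT8c symbols lie on one side of the 3 SCNT4c triangles, which the naming rule required. Replicate 3 (diamonds) is the SCNT8c library nearest to SCNT4c in 10 of the 11 rises and 7 of the 12 falls.

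Maternal effect and oocyte factors had the lowest median of the 26 gene lists in the main fit, carried by replicates 1 and 2. Oocyte secreted and zona genes, with 5 tested, lay lower in replicates 2 and 3 (−2.67 and −0.92, against −2.23 and −0.25). Under other scalings the maternal median rose to as much as −1.01, whereas that of the zona list stayed at −1.22 or below. Their summed value was 193041, 93391 and 576376 in SCNT8c replicates 1, 2 and 3 and 587135, 613876 and 622902 in SCNT4c libraries a, b and c, so that replicate 3 lay just below the lowest SCNT4c library. Of 37 listed genes 22 were tested, and 5 fell and 0 rose (22.7% against 3.16% of all features). Without replicate 3, 16 of 21 fell and 0 rose (19.9% of all features fell), with a median of −1.99. Leaving out any other library left 0 to 2 called. WEE2, the oocyte kinase that holds CDK1 inactive, had 14025, 9102 and 51665 in SCNT8c and 62392, 83206 and 106099.7 in SCNT4c. It fell by 2.13 ± 0.46 on the log2 scale (adjusted p = 0.0245), and by 2.86 without replicate 3 (adjusted p = 2.38e-05). KPNA7, an importin of the oocyte and early embryo, read 26537, 13366 and 93494 against 102178, 116463 and 128182. Its replicate 3 came close to SCNT4c library a while replicates 1 and 2 were several times lower, and it fell by 1.84 ± 0.48 (adjusted p = 0.0387, and −2.61 without replicate 3). NPM2, a nucleoplasmin that remodels chromatin in the egg, fell from 10986, 8589.9 and 5576 to 1019, 648 and 5928 (−2.36 ± 0.60, adjusted p = 0.0375, and −3.31 without replicate 3), with replicate 3 inside the SCNT4c range. UCHL1, a deubiquitinase abundant in the egg, read 3457, 4149.9 and 6526 against 14231, 21986 and 18835 and fell in all 3 libraries by 1.99 ± 0.31 (adjusted p = 0.0126, and −2.25 without replicate 3). PADI6, of the subcortical complex of the egg, read 7817, 5263 and 14234 against 22896, 26109 and 31904 and fell by 1.68 ± 0.34 (adjusted p = 0.0207, and −2.06 without replicate 3).

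Zona and oocyte-secreted genes were partly listed at 0 in the known-gene entries. Of 14 listed genes 5 were tested, of which 1 fell with 3 libraries (20% against 3.16% of all features) and 2 without replicate 3 (40% against 19.9%). With entries of a locus summed, an alternative chosen after seeing the data, 10 were tested, of which 1 fell, and 7 without replicate 3. ZP2, a zona pellucida glycoprotein, was the 1 that fell with 3 libraries, with 626, 1219.5 and 1663 in SCNT8c against 3321, 3862 and 2414 in SCNT4c (−1.53 ± 0.37, adjusted p = 0.0332, and −1.84 without replicate 3). All 3 SCNT8c libraries were below all 3 SCNT4c libraries. ZP4 had the same arrangement, with 45081, 36542 and 34726 against 85407, 63365 and 75580.0, and was not called (−0.95 ± 0.29, adjusted p = 0.0615, and −0.87 without replicate 3). The oocyte growth factors GDF9 and BMP15 were at 0 in all 6 libraries, but assembled transcripts placed by the authors at the same locus carried reads. In the sums GDF9 read 4836, 3738 and 17778 in SCNT8c and 20046, 9639 and 8068 in SCNT4c (log2 fold change −0.76 ± 0.50, adjusted p = 0.317). BMP15 read 2197, 1757 and 5388 against 6344, 6010 and 6065 (−1.16 ± 0.37, adjusted p = 0.0679). Neither was called with 3 SCNT8c libraries, and without replicate 3 they fell by 1.45 and 1.64 (adjusted p = 0.0066 and 0.00039). LIN28A, an RNA-binding protein of oocytes and pluripotent cells, read 1148, 741 and 4061 against 5040, 5404 and 6296 in such sums and fell by 1.88 ± 0.53 (adjusted p = 0.0474), with replicate 3 far above replicates 1 and 2, and the log2 fold change was −2.59 without it (adjusted p = 0.000242). The strand of assembled transcripts was not stated, so reads of an antisense partner could be included.

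Genes that degrade or deadenylate maternal RNA were called at shares near or below those of all features. Of 43 tested 1 rose and 1 fell (2.33% each, against 2.62% and 3.16% of all features), and without replicate 3, of 44, 6 rose (13.6% against 12.4%) and 5 fell (11.4% against 19.9%). CPEB2, which controls cytoplasmic polyadenylation, rose from 519, 283 and 379 to 1927, 1938 and 486 (1.67 ± 0.47, adjusted p = 0.0497, and 2.34 without replicate 3). PAN2, a deadenylase, fell from 1598, 1913 and 1773 to 314, 239 and 1011 (−2.05 ± 0.44, adjusted p = 0.024, and −2.68 without replicate 3). Nuclear pore and import genes gave 1 call among 38, the fall of KPNA7 given above, and 5 rises and 8 falls without replicate 3 (13.2% and 21.1%, near the shares of all features).

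Fibroblast markers were low in every embryo library and lower in SCNT8c than in SCNT4c. Their summed value was 4913, 6488 and 5330 in SCNT8c and 10405, 8829 and 10415 in SCNT4c, so here replicate 3 lay with replicates 1 and 2. Of 22 tested 5 fell and 0 rose (22.7% against 3.16% of all features), 10 did not overlap on the lower side (14.3% of all features did not), and 9 fell (40.9% against 19.9%) and 0 rose without replicate 3, with medians of −0.79 and −1.13. None of the 22 was called when any library other than replicate 3 was left out. TAGLN, an actin-binding protein of contractile cells, had 9.34, 4.99 and 42.3 in SCNT8c and 229, 147 and 188 in SCNT4c (−3.74 ± 0.79, adjusted p = 0.0239, and −4.56 without replicate 3). COL3A1, a fibrillar collagen, had 26.1, 6.65 and 101 and 303, 226 and 356 (−3.39 ± 0.81, adjusted p = 0.0313, and −4.34 without replicate 3). In both genes replicate 3 was higher than replicates 1 and 2 and lower than every SCNT4c library. COL1A2, a chain of type I collagen and the most abundant of the 5, had 964, 956 and 847 against 2633, 2218 and 2755, with the 3 SCNT8c libraries close together (−1.45 ± 0.29, adjusted p = 0.0205, and −1.39 without replicate 3). S100A6, a calcium-binding protein, and COL5A2, another fibrillar collagen, fell by 3.18 ± 0.80 and 2.04 ± 0.55 (adjusted p = 0.0364 and 0.0439, and −4.00 and −2.06 without replicate 3). Cumulus cell markers, which would mark follicle cells left on the oocyte, gave 0 calls among 8 tested, and 0 among 9 without replicate 3. Of all features 5.79% and 32.3% were called, so 0 of so few says little. Their summed value ranged from 1924 to 2418 in SCNT8c and from 1938 to 2300 in SCNT4c. Of the 19 markers with an entry only 4, FOXL2, AMH, PTX3 and CD44, were at 0 in their own entries in all 6 libraries. The others carried reads in at least 1 library. An assembled transcript at the CD44 locus read 14.1 in SCNT4c library c and 0 in the other 5.

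The 12 largest falls under the naming rule were of genes at modest values in SCNT4c and near 0 in SCNT8c. GRM2, a metabotropic glutamate receptor, was at 0 in all 3 SCNT8c libraries and at 394, 62.9 and 28.2 in SCNT4c, which is at least 171-fold lower when 3 reads over the SCNT8c group are taken as the floor. Library a carried most of the SCNT4c mean, and without it the bound was 48.4-fold. RTL4, a gene derived from a retrotransposon, read 5.6, 0 and 1.06 against 194, 83 and 88.8 (−5.58 ± 0.86, adjusted p = 0.0112, and −5.47 without replicate 3). CAV1, the coat protein of caveolae and abundant in fibroblasts, read 1.87, 4.99 and 29.6 against 202, 149 and 432 (−4.87 ± 0.80, adjusted p = 0.0144, and −5.83 without replicate 3). Replicate 3 was the highest SCNT8c library for CAV1 and stayed well below the lowest SCNT4c library. BMP8A, a bone morphogenetic protein, read 9.34, 1.66 and 42.3 against 258, 271 and 128 (−4.30 ± 1.08, adjusted p = 0.0356, and −5.31 without replicate 3), and MAP3K15, a stress-pathway kinase, 14, 3.33 and 22.2 against 296, 211 and 153 (−4.22 ± 0.67, adjusted p = 0.0126, and −4.73 without replicate 3). CCR1, a chemokine receptor, read 5.6, 34.1 and 14.8 against 281, 201 and 335 (−4.12 ± 0.76, adjusted p = 0.0189, and −4.13 without replicate 3). The other 6 were HRH1, a histamine receptor, TLR10, a Toll-like receptor, DOC2B, a calcium sensor of exocytosis, TMEM229B, a membrane protein, ASPA, an aspartoacylase, and CERS6, a ceramide synthase. Their log2 fold changes were −5.45 ± 1.42, −5.19 ± 1.46, −5.00 ± 1.16, −4.79 ± 1.20, −4.32 ± 0.91 and −3.93 ± 1.10, with values of 0 in at least 1 SCNT8c library for all but ASPA. Without replicate 3 they were −7.16, −4.34, −6.73, −3.92, −5.57 and −4.75.

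Of 40 cyclins, CDKs and checkpoint genes 4 rose and 2 fell (10% and 5%, against 2.62% and 3.16% of all features). Without replicate 3, of 41, 9 rose (22% against 12.4%) and 5 fell (12.2% against 19.9%). CCND2, a D-type cyclin that drives entry into S phase, rose from 1272, 451 and 852 to 4901, 5895 and 2100.4 (2.32 ± 0.51, adjusted p = 0.0251, and 2.77 without replicate 3). CDK1, the mitotic kinase, rose from 3202, 3405 and 3481 to 11094, 12078 and 5228 (1.40 ± 0.30, adjusted p = 0.0245, and 1.78 without replicate 3), and CDK7, the kinase that activates it and also a TFIIH subunit, from 1794, 2449 and 3588 to 9288, 8503 and 5196 (1.57 ± 0.31, adjusted p = 0.0205, and 1.83 without replicate 3). The fourth that rose was CCNC, a cyclin of the Mediator complex (2.14 ± 0.59, adjusted p = 0.0475, and 2.84 without replicate 3). With its assembled transcript added CCNC was not called with 3 libraries (1.81 ± 0.53, adjusted p = 0.0515, and 2.49 without replicate 3). All 4 were above SCNT4c in every SCNT8c library, replicate 3 by the least. The 2 that fell were WEE2, above, and AURKB, a mitotic kinase, which was at 0 in all SCNT8c libraries and at 22.9, 19.2 and 14.9 in SCNT4c, at least 20.2-fold lower by the same floor. DNA replication genes gave 3 rises and 2 falls among 44 tested (6.82% and 4.55%), and 9 of each without replicate 3 (20.5%, against 12.4% higher and 19.9% lower of all features). POLA2, of the primase complex, rose from 249, 301 and 367 to 1482, 1185 and 625 (1.77 ± 0.38, adjusted p = 0.0245, and 2.13 without replicate 3), and GINS1 and GINS4, of the replicative helicase, also rose, GINS1 by 1.70 ± 0.36 (adjusted p = 0.0237, and 2.00 without replicate 3). ORC1, the origin-binding subunit, fell from 162, 78.6 and 63.1 to 12.1, 4.16 and 16.9 (−3.14 ± 0.60, adjusted p = 0.0189, and −3.51 without replicate 3), and TOP2B, a topoisomerase, by 1.85 ± 0.48 (adjusted p = 0.0392, and −2.56 without replicate 3).

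Histone methylation enzymes gave 3 rises and 0 falls among 31 tested (9.68% against 2.62% of all features rose), and 6 rises (19.4% against 12.4%) and 3 falls (9.68% against 19.9%) without replicate 3. WDR5, a core subunit of H3K4 methyltransferases, read 1561, 1983 and 1044 in SCNT8c against 1006, 112 and 43.2 in SCNT4c, where library a stood near replicate 3 and libraries b and c far below (3.11 ± 0.77, adjusted p = 0.0355, and 3.36 without replicate 3). EED, which binds H3K27me3 within the PRC2 complex, rose from 883, 2245 and 3343 to 8677, 8905 and 4228 (1.87 ± 0.41, adjusted p = 0.0255, and 2.23 without replicate 3). KDM5A, an H3K4 demethylase, rose from 224, 360.0 and 488 to 1398, 1648 and 714 (1.79 ± 0.40, adjusted p = 0.0266, and 2.15 without replicate 3). The other core PRC2 subunits were not called with 3 libraries, EZH2, the catalytic one, at 1035, 1037 and 375 against 339.9, 344 and 314 (1.15 ± 0.38, adjusted p = 0.0747) and SUZ12 at 6099.9, 7833 and 1406 against 1806, 1559.8 and 1178 (1.45 ± 0.48, adjusted p = 0.077). Without replicate 3 both rose, by 1.64 and 2.21 (adjusted p = 0.000303 and 6.51e-05), and JARID2, which recruits PRC2, fell by 3.40 (adjusted p = 0.000332). KDM4A, the H3K9 demethylase supplied to SCNT4c-KG, read 162, 134 and 47.5 against 313, 136 and 134 and was not called in either fit (−0.82 ± 0.48, adjusted p = 0.267, and −0.28 without replicate 3).

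DNA methylation and demethylation genes gave 0 calls among 19 with 3 libraries, where 5.79% of all features were called. Without replicate 3 they gave 4 rises and 5 falls (21.1% and 26.3%, against 12.4% and 19.9% of all features). The study followed TDG, a DNA glycosylase that removes oxidized methylcytosine, and its values were 2340.4, 2052 and 2506 in SCNT8c and 1659, 939 and 2541 in SCNT4c. The groups overlapped and the difference missed the threshold in both fits (0.53 ± 0.31, adjusted p = 0.261, and 0.47 without replicate 3, adjusted p = 0.256). SMUG1, a uracil glycosylase, read 358, 484 and 228 against 200.3, 27.1 and 9.96 (3.11 ± 0.93, adjusted p = 0.0574, and 3.40 without replicate 3) and was called higher with its assembled transcript added (2.41 ± 0.61, adjusted p = 0.0339, and 2.71 without replicate 3). MBD4 and APEX1, of base excision repair, also rose without replicate 3. DNMT3B, a de novo methyltransferase, read 263, 59 and 833 against 813, 569 and 617 and fell without replicate 3 (−2.39, adjusted p = 0.0034), as did UHRF1, which brings the maintenance enzyme to replicated DNA (−3.31, adjusted p = 0.00725), together with UHRF2, UNG and PARP1. UHRF2 was by far the most abundant, at 19782, 8143 and 96487 against 79139, 90597 and 80714, where replicate 3 had the highest value of the 6 libraries. DNMT1, the maintenance methyltransferase, was low, with 5.6, 5.82 and 6.34 against 11.8, 4.37 and 1.66 (0.28 ± 0.75, adjusted p = 0.833, and 0.24 without replicate 3).

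Known EGA genes gave 1 rise and 2 falls among 17 tested (5.88% and 11.8%, against 2.62% and 3.16% of all features), and 5 rises and 2 falls without replicate 3 (29.4% and 11.8%, against 12.4% and 19.9%). EIF1AX, an initiation factor long used as an EGA marker, rose in all 3 SCNT8c libraries, from 4565, 4139 and 4166 to 10694, 11013 and 7702 (1.18 ± 0.25, adjusted p = 0.0238, and 1.34 without replicate 3). DPPA4, of a pair of chromatin factors of the early embryo, read 700.2, 828 and 309 against 87.5, 132 and 359 and rose without replicate 3 (2.24, adjusted p = 0.00346). CSTF1, of the RNA cleavage complex, fell from 109, 111 and 87.2 to 20.5, 27.4 and 62.3 (−1.60 ± 0.44, adjusted p = 0.0465, and −2.05 without replicate 3), and DPPA5, an RNA-binding protein of pluripotent cells, from 2976, 3751 and 1769 to 940.1, 615 and 1316 (−1.56 ± 0.36, adjusted p = 0.0298, and −1.83 without replicate 3). TFAP2C, a transcription factor of the trophectoderm, read 1569, 1801 and 1158 against 1118, 544 and 605, without overlap and short of the threshold (1.05 ± 0.31, adjusted p = 0.0567), and rose without replicate 3 (1.23, adjusted p = 0.00549). SUPT4H1, an elongation factor, read 5969, 4425 and 2680.4 against 3676, 2668 and 3901 and was not called in either fit (0.30 ± 0.29, adjusted p = 0.515, and 0.61 without replicate 3). PNRC1, UBTFL1 and ZSCAN4, a zinc finger factor of EGA, were below the mean needed for testing, and ZSCAN4 read 19.6, 2.49 and 2.11 against 0, 0 and 0.83. KLF17, a Krüppel-like factor, was at 0 in its own entry and read 580, 278 and 223 against 346, 243 and 150 in the sum over its locus (0.50 ± 0.39, adjusted p = 0.409, and 0.78 without replicate 3).

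Genes of later lineages, cell contact, apoptosis and stress gave 0 or 1 call a list with 3 libraries, where 5.79% of all features were called, and their counts without replicate 3 stand against 12.4% higher and 19.9% lower. Trophectoderm and hypoblast factors had 0 calls among 14 tested, and 1 rise and 2 falls without replicate 3. Compaction and junction genes had 0 among 25, and 1 rise and 4 falls without it. With entries of a locus summed, 27 were tested and 1, PARD3, fell (−1.60 ± 0.44, adjusted p = 0.0449, and −2.03 without replicate 3). Without replicate 3 such sums gave 2 rises and 5 falls. CDH1 was not called in its sum with 3 libraries (0.67 ± 0.56, adjusted p = 0.442) and rose without replicate 3 (1.40, adjusted p = 0.0176). CTNNA1, the catenin that ties cadherins to actin, read 3658, 2786 and 5769.7 against 9951, 6179.8 and 5809 (−0.87 ± 0.30, adjusted p = 0.0853) and fell without replicate 3 (−1.15, adjusted p = 0.00296). Pluripotency factors gave 1 fall, DPPA5, among 13, and 4 falls without replicate 3. Of 17 apoptosis genes 1 rose and 0 fell with 3 libraries, and 6 rose and 1 fell without replicate 3. Stress and heat shock genes gave 0 calls among 33, and 8 rises and 2 falls without replicate 3. HSPA8, the constitutive heat shock cognate, read 32694, 38491 and 11086 against 7811, 18166 and 25339, with replicate 3 inside the SCNT4c range (0.65 ± 0.45, adjusted p = 0.348, and 1.21 without replicate 3).

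The calls were also read against the level of each gene in the donor fibroblasts, measured in libraries that did not enter the fit. The mean needed for testing was taken over all embryo libraries of the fit, most of them at the 4-cell stage. Low genes present only at that stage passed it more easily than those present only in SCNT8c. The part of this in the shares that fell was not tested. Among 1938 tested known genes at 0 in PFF, 0.722% rose and 5.93% fell, with a median log2 fold change of −1.27. Among 3572 with a PFF mean of 1000 or more, 5.63% rose and 3.05% fell (median 0.19). The change lay between the bins of 10 to 100, with 1.14% higher and 2.66% lower, and of 100 to 1000, with 5.90% higher and 2.02% lower. Without replicate 3 the genes at 0 in PFF were 3.28% higher and 36.1% lower, those at 10 to 100 were 6.99% and 15.2%, those at 100 to 1000 were 22.3% and 11%, and those at 1000 or more were 24.6% and 13.5%. Assembled transcripts showed a like order, with 0.756% higher and 4.11% lower at 0 in PFF, and 4.94% and 34.9% without replicate 3. Both the ribosomal proteins, whose called members rose, and the fibroblast markers, whose called members fell, had high summed values in PFF, of at least 1025749 and 4778615. On the log2(value + 1) scale, the mean correlation with PFF was 0.540 for SCNT8c replicates 1 and 2, 0.375 for replicate 3 and 0.386 for SCNT4c.

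**Figure D4:**
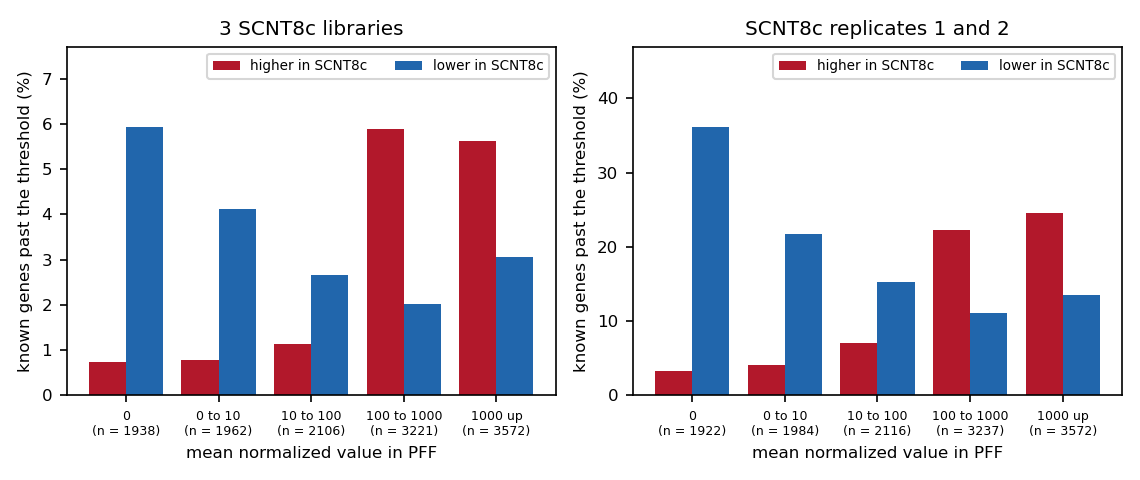
Share of tested known genes called higher (red) or lower (blue) in SCNT8c (y axis, percent) by their mean normalized value in the donor fibroblasts (x axis, n = tested genes), for all 3 SCNT8c libraries on the left and replicates 1 and 2 on the right, with different y axes. Calls at 0 in PFF are mostly lower (5.93% against 0.722% higher) and calls at 100 and above mostly higher.

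Replicate 3 was read at the features called without it, a choice in which its values had no part. It had been set aside because it resembled SCNT4c in these same data. Its nearness to SCNT4c at these features restates that resemblance and is no independent result. Of the 2363 called higher it lay above the SCNT4c mean in 1683 (71.2%) and more than 2-fold above in 504 (21.3%). Of the 3770 called lower it lay below in 2324 (61.6%) and more than 2-fold below in 754 (20%). On a scale from the SCNT4c mean at 0% to the mean of replicates 1 and 2 at 100%, its median position was 21.7% for features called higher and 8.50% for those called lower. The SCNT4c libraries had helped to choose these features, so the reading was repeated with features chosen on 2 SCNT4c libraries and replicates 1 and 2, by more than 2-fold between all of them, and replicate 3 set against the SCNT4c library left out. It then lay on the same side in 54.5, 58.2 and 51.5% of the features higher (libraries a, b and c left out) and in 62.5, 64.3 and 55.2% of those lower. Its median difference from the left-out library was then between 0.05 and 0.23 on the log2 scale for features higher and between 0.12 and 0.30 for those lower, where replicates 1 and 2 differed by 1.63 to 1.86 and 2.30 to 2.56. Replicates 1 and 2 had helped to choose these features, so their large difference follows from the choice. What another 8-cell library left out of the choice would show was not tested.

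**Figure D5:**
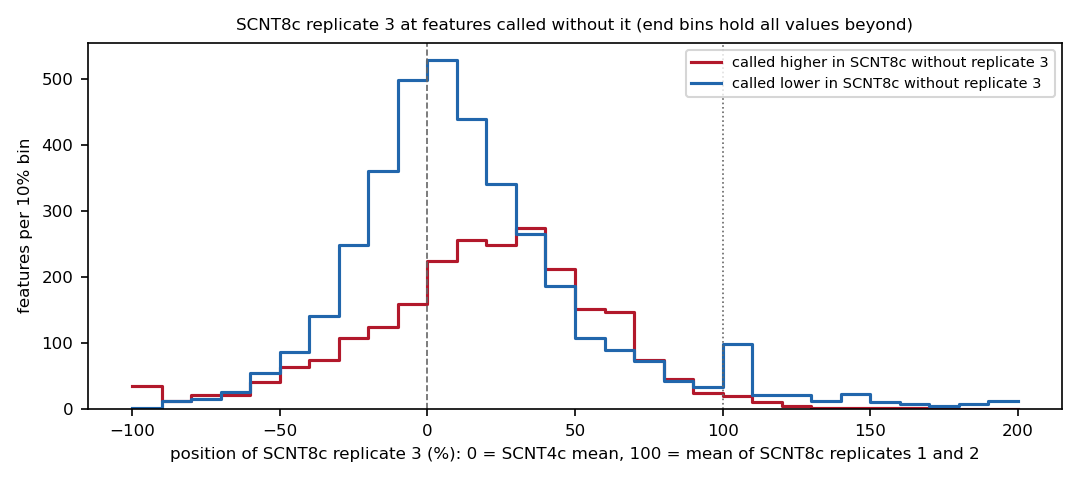
Number of features (y axis, per bin of 10%) by the position of SCNT8c replicate 3 (x axis, percent) between the SCNT4c mean (0, dashed) and the mean of SCNT8c replicates 1 and 2 (100, dotted), for features called higher (red) or lower (blue) without it. Both distributions centre near SCNT4c, with medians of 21.7% and 8.50%, and 79.5% of the features called higher and 85.1% of those called lower lie below 50%. Replicates 1 and 2 helped to choose the features and set the 100% end, so a library left out of the choice tends to fall below it.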

How the data were processed

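Single PFF cells were fused with enucleated oocytes and pools of 30 embryos were lysed per library. According to the study's methods the authors amplified the RNA as cDNA, called bases with CASAVA 1.8.2, trimmed with Trimmomatic 0.39 and aligned with STAR 2.5.3a to the Sscrofa11.1 build. Reads with a unique position went into transcript assembly by StringTie 2.1.2 and counting by HTSeq, and the authors tested with DESeq2. The deposited signal values are gene counts divided by 1 factor per library by the authors; the source of the factor and the strand setting are not given in the sources used here. Every value was a whole multiple of 1 read in its library (tolerance 0.01). Of 43535 entries, 241 repeats were removed, leaving 28224 known genes and 15070 assembled transcripts. Uniquely mapped counting lowers near-identical copies and cannot separate overlapping or antisense genes.

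The values were tested as log2(value + 1) with limma 3.58.1 (R 4.3.3) with an intensity trend over the 12 embryo libraries, on features with a mean of at least 10, and called at a Benjamini-Hochberg adjusted p under 0.05 with a change beyond 2-fold. All adjusted p-values are from this test unless named otherwise. A fold change on this scale understates the change of low genes. edgeR 4.0.16 and DESeq2 1.42.0 on recovered reads, other scalings, filters and pseudocounts, and each library left out were alternatives. The test was run on simulated data first. Nothing states that pools of a group came from separate batches of oocytes or donor cells, so p-values measure the spread between these libraries, which may be technical. The read totals limit values near 0, and floors cover counting error only.

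The members, the 26 gene lists and the rules were chosen with earlier results of these data known. Named were the 12 largest rises and 12 largest falls among genes with a symbol that were called with and without SCNT8c replicate 3, did not overlap and averaged 100 or more where higher, then up to 4 called members of each list (or the 2 most abundant where none was called), and genes the study measured. Some genes that the rule names are not reported here. PADI6, COL1A2, CDK1, CDK7, ZP4, DPPA3, DPPA4, POU5F1, EIF4E1B, TBPL2, SUZ12, JARID2, UHRF1, ZSCAN4 and genes given by name alone were added after their values were seen. Gene positions, transcripts and sequence are from RefSeq's Sscrofa11.1.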

Additional observations from a re-analysis of the deposited data

How the results depend on the processing

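No paired analysis was possible because the SCNT4c libraries carry no replicate number on which the sources agree. Against 1096 calls (497 higher and 599 lower), a pseudocount of 10 gave 1662, testing every feature above 0 gave 601, edgeR gave 658 (509 higher and 149 lower), DESeq2 2733 (1962 and 771), quantile normalization 1280 (729 and 551), library quality weights 3447, and SCNT8c with SCNT4c alone 0, or 5279 without SCNT8c replicate 3. These scalings moved the median log2 fold change of all features by 0.24 (edgeR), 0.33 (quantile) and 0.37 (DESeq2). The rising lists kept medians above 0 and the maternal, oocyte and fibroblast lists below 0 under all 5 scaling alternatives, whereas pluripotency, nuclear pore, RNA decay and cell cycle lists changed sign. Leaving out 1 library at a time gave 31 to 6133 calls. Without replicate 3, the 7 alternatives gave 5279 to 6801 calls against 6133. Of 77 named genes called, 0 reversed, but most lost the call when a library other than replicate 3 was left out. Calls were kept by 3 and 7 of them without SCNT8c replicates 1 and 2, by 17, 2 and 26 without SCNT4c libraries a, b and c, by 77 without replicate 3, by 54 with edgeR and by 0 of 76 in the fit of both groups alone. Summing entries of a locus, chosen after seeing the data, kept 74.

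Replicate 3 lay on the same side in 54.48, 58.23 and 51.50% (higher) and in 64.33 and 55.16% (lower, libraries b and c) once the SCNT4c library was held out. With a pseudocount of 10 the correlations became 0.8325 (replicates 1 and 2 with SCNT4c), 0.9231 (replicate 3 with SCNT4c), 0.8411 (replicate 3 with replicates 1 and 2) and 0.9355 (replicates 1 and 2). With DESeq2 the medians of splicing and DNA replication genes were 0.6221 and 0.24, and leaving out 1 library put DNA replication between −0.182 and 0.2074. The fibroblast median was −1.4888 at a minimum mean of 50, which tests fewer genes, and −1.3849 to −0.6604 with 1 library left out. Log2 fold changes that were not called and changed sign when 1 library was left out were those of INHBA (−0.0915 to 0.1736), GAPDH (−0.0023 to 1.4362), VCAN (−0.7228 to 0.036) and DNMT1 (−0.2638 to 0.8711). INHBA was also −0.0915 in the fit of both groups alone without replicate 3 and reached 0.3123 with DESeq2, and DNMT1 reached 1.2688 with quantile normalization. The cause of these changes was not tested.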
